A study of Mus musculus with 10 samples.

Results

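The VEGF and angiopoietin genes were 10 genes, chosen by their symbols from the 15900 genes in the table of CAGE (cap analysis of gene expression) levels: the ligands *Vegfa*, *Vegfb*, *Vegfc* and *Pgf*, the VEGF receptors *Flt1* and *Kdr*, the coreceptors *Nrp1* and *Nrp2*, and the angiopoietins *Angpt1* and *Angpt2*. All 10 were listed, were above 0 in every library and passed the filter on low values. CAGE sequences the capped ends of RNA, so that a tag marks a start of transcription, and the deposited level is tags of the gene scaled to a fixed library total, as CPM. The libraries were made from whole hippocampi of male ICR mice, a common outbred strain, with 2 mice in each of 5 groups, which served the question of how gene expression changes early after status epilepticus (SE) and under the antiseizure drug levetiracetam (LEV). Pre-SE mice are labelled untreated, and the study's methods describe saline in place of PILO for control mice. The mice of the other groups received methyl scopolamine to block peripheral cholinergic effects, then pilocarpine (PILO), a muscarinic agonist that evokes SE, and then diazepam to end the seizures. They were sampled at 6 h (SE 6 h) or 2 days (SE 2 days), or at the same times with oral LEV begun shortly after diazepam, given as a single dose in SE + LEV 6 h mice and repeatedly in SE + LEV 2 days mice. SE, PILO and any other agent that pre-SE mice did not receive cannot be told apart in a comparison with them.

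VEGF-A is the main growth and permeability factor of blood vessels, made in the brain by astrocytes and neurons among others, and it acts on endothelial cells through KDR (VEGFR2), while FLT1 (VEGFR1) binds it tightly and in its soluble form takes it away from KDR. The neuropilins NRP1 and NRP2 bind VEGF beside the receptors and, on neurons, also carry the signals of class 3 semaphorins. ANGPT1, from cells around the vessel, keeps the vessel wall quiet through the receptor TEK (TIE2), and ANGPT2, stored and released by endothelial cells, mostly opposes it and loosens the wall. In the brain this balance is known for its part in the tightness of the blood-brain barrier.

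The tags on the listed genes, as recovered from the rounded CPM, ran from 10540698 to 51710968 a library (median 26671413), and the limit of detection, set at 3 tags, lay between 0.058 and 0.285 CPM. Counts of tags and floors cover counting error alone. All 8 neuronal markers checked were above 0 in every library, with sums of 3680 to 6888 CPM. Choroid plexus markers stood out in 4 libraries: the sum of the 6 listed of 8 choroid plexus markers, among them the transthyretin gene *Ttr*, was 2171 CPM in pre-SE replicate 2, 4883 in SE 6 h replicate 2, 1346 in SE + LEV 6 h replicate 1 and 1813 in SE + LEV 2 days replicate 1, against 73.1 to 124.7 CPM in the other 6 libraries. No SE 2 days library was among the 4. Of the 6 markers, *Aqp1* was at 0 in 1 library and the others were at 0 in none. Values without these 4 libraries are therefore given beside the main results at SE 6 h.

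The table holds 1 level per gene, so the starts behind it cannot be told apart. The 250 bases before annotated starts are given as promoter sequence. Whether the tags of a gene came from these starts is not known. RefSeq entries (build GRCm38.p6) were found for 8 of the 10 genes, all but *Angpt1* and *Angpt2*, and each matched its mm9 chromosome exactly and in 1 place. The entries number 10, since *Vegfa* and *Pgf* have 2 each. The windows below belong to the ligand, the receptor and the coreceptor whose levels stood highest above pre-SE at 6 h after *Angpt2*, with both entries of *Vegfa*, the second of which lies inside the gene. Capitals mark matches, on either strand, to any of 7 motifs searched: ACGTG and GCGTG, the core of hypoxia response elements, TGANTCA for AP-1, TGACG for CREB, GGGCGG for Sp1, CCGGAA for ETS and the TATA box TATAAA.

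*Vegfa*, chr17:46169327-46169576, minus strand: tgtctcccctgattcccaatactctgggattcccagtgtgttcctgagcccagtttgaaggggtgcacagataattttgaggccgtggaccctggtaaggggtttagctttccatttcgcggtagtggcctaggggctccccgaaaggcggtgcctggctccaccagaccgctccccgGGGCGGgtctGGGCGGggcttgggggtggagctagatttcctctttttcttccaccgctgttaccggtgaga

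*Vegfa*, second entry, chr17:46162113-46162362, minus strand: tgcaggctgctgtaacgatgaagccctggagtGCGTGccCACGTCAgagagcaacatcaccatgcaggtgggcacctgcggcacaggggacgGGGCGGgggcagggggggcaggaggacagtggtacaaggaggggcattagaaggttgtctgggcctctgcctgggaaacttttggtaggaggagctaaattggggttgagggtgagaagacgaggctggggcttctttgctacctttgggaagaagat

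*Flt1*, chr5:148537588-148537837, minus strand: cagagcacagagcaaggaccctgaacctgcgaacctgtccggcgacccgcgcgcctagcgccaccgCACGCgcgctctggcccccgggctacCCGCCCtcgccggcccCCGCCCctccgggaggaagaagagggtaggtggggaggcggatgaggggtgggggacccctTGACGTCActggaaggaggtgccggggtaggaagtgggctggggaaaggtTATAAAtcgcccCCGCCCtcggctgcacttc

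*Nrp1*, chr8:130882723-130882972, plus strand: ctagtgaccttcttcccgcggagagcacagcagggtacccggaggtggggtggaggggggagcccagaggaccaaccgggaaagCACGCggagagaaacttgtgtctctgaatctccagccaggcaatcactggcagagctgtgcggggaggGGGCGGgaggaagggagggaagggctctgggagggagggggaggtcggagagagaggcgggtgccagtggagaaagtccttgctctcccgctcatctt

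The first *Vegfa* window held 2 GGGCGG matches and no other motif of the 7, and the second held 1 GGGCGG match, 1 GCGTG match, 1 ACGTG match and 1 TGACG match, of which the last pair overlap. The *Flt1* window held 3 GGGCGG matches, 1 GCGTG match, 1 TATAAA match and a TGACG match on each strand, which overlap in 1 palindrome. The *Nrp1* window held 1 GGGCGG and 1 GCGTG match. Among all 32851 RefSeq windows of this length, GGGCGG was found in 32.7%, GCGTG in 28.2%, TGACG in 17.8%, ACGTG in 16.6%, TATAAA in 12.4%, CCGGAA in 12% and TGANTCA in 6.75%. A match is a string of letters and not a binding site, and these libraries do not measure what binds there.

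At 6 h after SE, the angiopoietin-2 gene had the largest rise of the 10 members. *Angpt2* was 14.2 times its pre-SE level (logFC, the log2 fold change of CPM + 0.1, 3.82 with a standard error of 0.52, written ± below, adjusted p = 0.00486 by limma with Benjamini-Hochberg adjustment over 15851 genes, n = 2 mice a group). It was the 1 of 10 genes called higher at an adjusted p of at most 0.05, where 2.76% of all genes tested were called higher, and none was called lower, where 0.202% were. The *Nrp1*, *Vegfa* and *Flt1* estimates were next in size and did not pass the adjustment. At an unadjusted p under 0.05, 4 members were higher and 1, *Vegfc*, was lower, where 9.21% and 8.51% of all genes were. Across the 10 genes the median logFC was 0.95, against -0.13 over all genes tested, and the SE 6 h pair lay wholly above the pre-SE pair for 7 genes and wholly below it for 3. Over all genes tested 18.6% lay wholly above and 31.3% wholly below. In whole tissue, a change in the number of cells that express a gene and a change in the RNA per cell cannot be told apart.

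**Figure D1:**
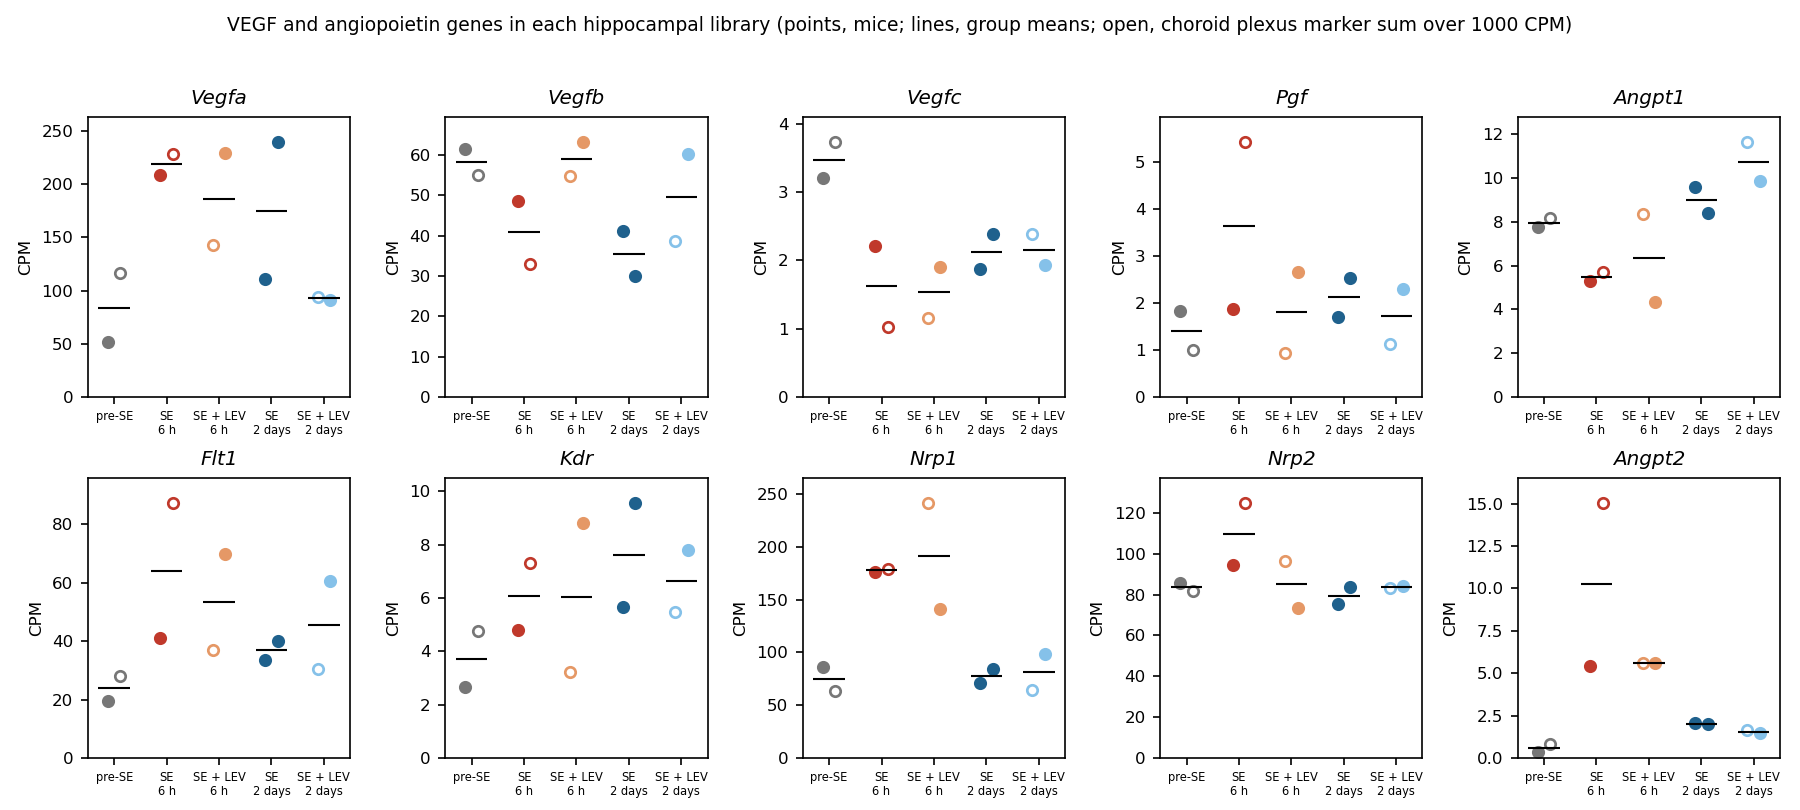
CPM of the 10 VEGF and angiopoietin genes in each of the 10 libraries, by group. Points are mice, lines are group means and open points are the 4 libraries with a choroid plexus marker sum over 1000 CPM; the *Angpt2* points of both 6 h groups lie at 5.45 CPM or more, above the 0.34 and 0.85 CPM of the pre-SE mice.

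*Angpt2* lies on mouse chromosome 8 (mm9, 18690263 to 18741562, minus strand), inside the gene *Mcph1* on the other strand. Its level in replicates 1 and 2, in this order here and for every gene, was 0.34 and 0.85 CPM before SE (about 10 and 44 tags, as recovered from the rounded CPM), 5.45 and 15.0 at SE 6 h (about 170 and 219 tags), and 5.58 and 5.60 at SE + LEV 6 h. It was 2.04 and 2.01 CPM at SE 2 days and 1.62 and 1.48 at SE + LEV 2 days. All 8 mice given PILO thus stood above both pre-SE mice, and each 6 h mouse stood above each 2 days mouse. *Mcph1*, whose tags could be mixed with those of *Angpt2* if the authors' counting did not use strand, ran from 12.1 to 28.4 CPM and had its lowest value in SE 6 h replicate 1. The order of the group means was SE 6 h (10.2 CPM), SE + LEV 6 h (5.59), SE 2 days (2.03), SE + LEV 2 days (1.55) and pre-SE (0.595), where SE 6 h overlapped SE + LEV 6 h and each of the other neighbours was apart.

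The libraries with and without choroid plexus markers gave *Angpt2* the same order of pre-SE, 2 days and 6 h levels. Among the 4 libraries with the markers it was 0.85 CPM in the pre-SE mouse, 15.0 in the SE 6 h mouse, 5.58 in the SE + LEV 6 h mouse and 1.62 in the SE + LEV 2 days mouse. The 2 days level among them is that of an SE + LEV mouse alone. In the pre-SE and SE 6 h pairs the mouse without the markers had the lower level, at 0.34 and 5.45 CPM. Without those 4 libraries, which leaves 1 mouse in each group but SE 2 days, the logFC at SE 6 h was 3.66 and the adjusted p by limma 0.101, so the call was lost, in a fit where the lone mice are assumed to vary like the SE 2 days pair. With the log2 sum of the choroid plexus markers as a covariate in all 10 libraries, it was 3.76 with an adjusted p of 0.00132. Over all alternatives the adjusted p ran from 0.00132 to 0.101 and the logFC from 2.69 to 4.55. Without the 4 libraries the logFC at SE 6 h was 2.01 for *Vegfa*, 1.06 for *Flt1*, 1.03 for *Nrp1* and -0.52 for *Vegfc*, and none was called.

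In SE + LEV 6 h mice *Angpt2* was also called higher than in pre-SE mice, by a logFC of 3.14 ± 0.52 (adjusted p = 0.0400 by limma), and it was the 1 member called among 0.315% of all genes called higher in that comparison. No member was called lower, where 0.00631% of all genes were. At an unadjusted p under 0.05, *Vegfa*, *Flt1*, *Nrp1* and *Angpt2* were higher and *Vegfc* was lower, where 5.53% and 3.85% of all genes were. These 5 genes were also those whose SE + LEV 6 h and pre-SE mice did not overlap, where 17% of all genes lay wholly above and 25.5% wholly below. The adjusted p ran from 0.00785 to 0.25 over the alternatives, and the call was lost without either pre-SE mouse, either SE + LEV 6 h mouse or either SE 2 days mouse, without the 4 libraries with choroid plexus markers, with pseudocounts of 0.5 and 1, without the mean-variance trend, with only the groups compared and with replicate number as a block, with adjusted p values of up to 0.25 and logFC values between 2.07 and 3.70 over all alternatives. At 2 days the logFC was 1.72 ± 0.52 in SE mice (adjusted p = 0.0900) and 1.35 ± 0.52 in SE + LEV mice (adjusted p = 0.326). With the choroid plexus covariate the SE 2 days value was 2.12, with an adjusted p by limma of 0.0167 and a range of 0.0167 to 0.51 over the alternatives. From 6 h to 2 days after SE without LEV the logFC was -2.11 ± 0.52, with an adjusted p of 0.0505, just above the threshold.

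*Angpt1*, on chromosome 15 (42256273 to 42508523, minus strand), is the ligand that ANGPT2 opposes, and it overlaps *Gm17473* on the other strand. Its level was 7.76 and 8.18 CPM before SE, 5.29 and 5.69 at SE 6 h and 8.37 and 4.36 at SE + LEV 6 h. It was 9.62 and 8.41 CPM at SE 2 days and 11.6 and 9.86 at SE + LEV 2 days. Both SE 6 h mice lay below the pre-SE pair, as 31.3% of all genes did, and both SE 2 days mice lay above it, as 26.3% did. The logFC was -0.53 ± 0.35 (adjusted p = 0.453 by limma) at SE 6 h and 0.17 ± 0.35 (adjusted p = 0.837) at SE 2 days. Neither passed the test, nor did the logFC of 0.70 ± 0.35 from 6 h to 2 days (adjusted p = 0.289).

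Within a library, *Angpt2* stood far below *Angpt1* before SE and at about its level at 6 h after it. CAGE takes a tag per capped end, so the levels of a pair of genes were set against each other without dividing by length. The *Angpt2* to *Angpt1* ratio of CPM was 0.0438 and 0.104 before SE, 1.03 and 2.64 at SE 6 h, 0.667 and 1.28 at SE + LEV 6 h, 0.212 and 0.239 at SE 2 days, and 0.139 and 0.150 at SE + LEV 2 days. No pre-SE ratio reached that of any other mouse, and both SE + LEV 2 days ratios lay below both SE 2 days ratios. The mean ratio was 1.83 at SE 6 h against 0.0739 before SE, with a two-sided exact permutation p of 0.333, the smallest that 2 mice against 2 allow.

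*Vegfa*, on chromosome 17 (46153942 to 46169326, minus strand) with 8 annotated transcript starts, encodes the ligand of both FLT1 and KDR. Its level was 52.0 and 116 CPM before SE, 209 and 229 at SE 6 h and 143 and 230.0 at SE + LEV 6 h. It was 111 and 239.5 CPM at SE 2 days, and 94.0 and 91.4 at SE + LEV 2 days. All 4 of the 6 h mice lay above both pre-SE mice, whereas the SE 2 days mice differed from each other by more than their mean differed from the pre-SE mean and overlapped that group. The SE + LEV 2 days mice lay within the pre-SE range. The logFC against pre-SE was 1.49 ± 0.43 at SE 6 h (adjusted p = 0.108 by limma), 1.22 ± 0.43 at SE + LEV 6 h (0.378), 1.07 ± 0.43 at SE 2 days (0.200) and 0.25 ± 0.43 at SE + LEV 2 days (0.937), and none was called.

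*Vegfb*, on chromosome 19 (7056963 to 7062141, minus strand), encodes a ligand of FLT1 tied to fat uptake and cell survival more than to sprouting. Its level was 61.6 and 55.2 CPM before SE, 48.7 and 33.0 at SE 6 h and 54.8 and 63.2 at SE + LEV 6 h. It was 41.2 and 29.99 CPM at SE 2 days and 38.7 and 60.3 at SE + LEV 2 days. Without LEV both mice at each time lay below both pre-SE mice, while with LEV both groups overlapped pre-SE. Over all genes tested, 31.3% lay wholly below pre-SE at SE 6 h and 25.6% at SE 2 days. The logFC against pre-SE was -0.54 ± 0.29 at SE 6 h (adjusted p = 0.368 by limma) and -0.73 ± 0.29 at SE 2 days (adjusted p = 0.201), and neither was called.

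At SE 6 h, the *Vegfa* pair thus lay above and the *Vegfb* pair below its pre-SE pair. The *Vegfa* to *Vegfb* ratio of CPM was 0.845 and 2.10 before SE, 4.30 and 6.93 at SE 6 h, 2.61 and 3.64 at SE + LEV 6 h, 2.69 and 7.99 at SE 2 days, and 2.43 and 1.51 at SE + LEV 2 days. Both SE + LEV mice had a lower ratio than both SE mice at each time, with a two-sided exact permutation p of 0.333, the smallest possible, in each case. Ratios of 4 pairs of genes were compared in this way. The *Nrp1* to *Nrp2* ratio was higher in both SE + LEV mice than in both SE mice at 6 h. The *Angpt2* to *Angpt1* ratio was lower in both at 2 days, and the remaining LEV comparisons of ratios overlapped. *Vegfa* made up 43.8% and 66.0% of the CPM of the 4 VEGF ligand genes in pre-SE mice and 79.9% and 85.3% at SE 6 h. The share was 71.6% and 77.3% at SE + LEV 6 h, 71.2% and 87.3% at SE 2 days, and 69.0% and 58.6% at SE + LEV 2 days.

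*Vegfc*, on chromosome 8 (55162886 to 55271808, plus strand), encodes the main lymphatic VEGF and acts through FLT4 (VEGFR3). Its level was 3.21 and 3.73 CPM before SE, 2.21 and 1.03 at SE 6 h, 1.16 and 1.90 at SE + LEV 6 h, 1.87 and 2.39 at SE 2 days, and 2.38 and 1.93 at SE + LEV 2 days. Every mouse given PILO lay below both pre-SE mice, and the 4 groups of such mice overlapped each other in the order of their means. The logFC was -1.14 ± 0.44 at SE 6 h (adjusted p = 0.216 by limma) and -1.17 ± 0.44 at SE + LEV 6 h (adjusted p = 0.424), and neither was called.

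*Pgf*, on chromosome 12 (86507589 to 86518246, minus strand), encodes placental growth factor, which binds FLT1 and not KDR. Its level was 1.83 and 0.99 CPM before SE, 1.86 and 5.41 at SE 6 h, 0.93 and 2.66 at SE + LEV 6 h, 1.70 and 2.53 at SE 2 days, and 1.12 and 2.30 at SE + LEV 2 days. The lower SE 6 h mouse exceeded the higher pre-SE mouse by 0.03 CPM, and all groups overlapped their neighbours in the order of the means. The logFC at SE 6 h was 1.18 ± 0.64 (adjusted p = 0.368 by limma), and it was 0.02 when SE 6 h replicate 2, a library with choroid plexus markers, was left out with the other 3.

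**Figure D2:**
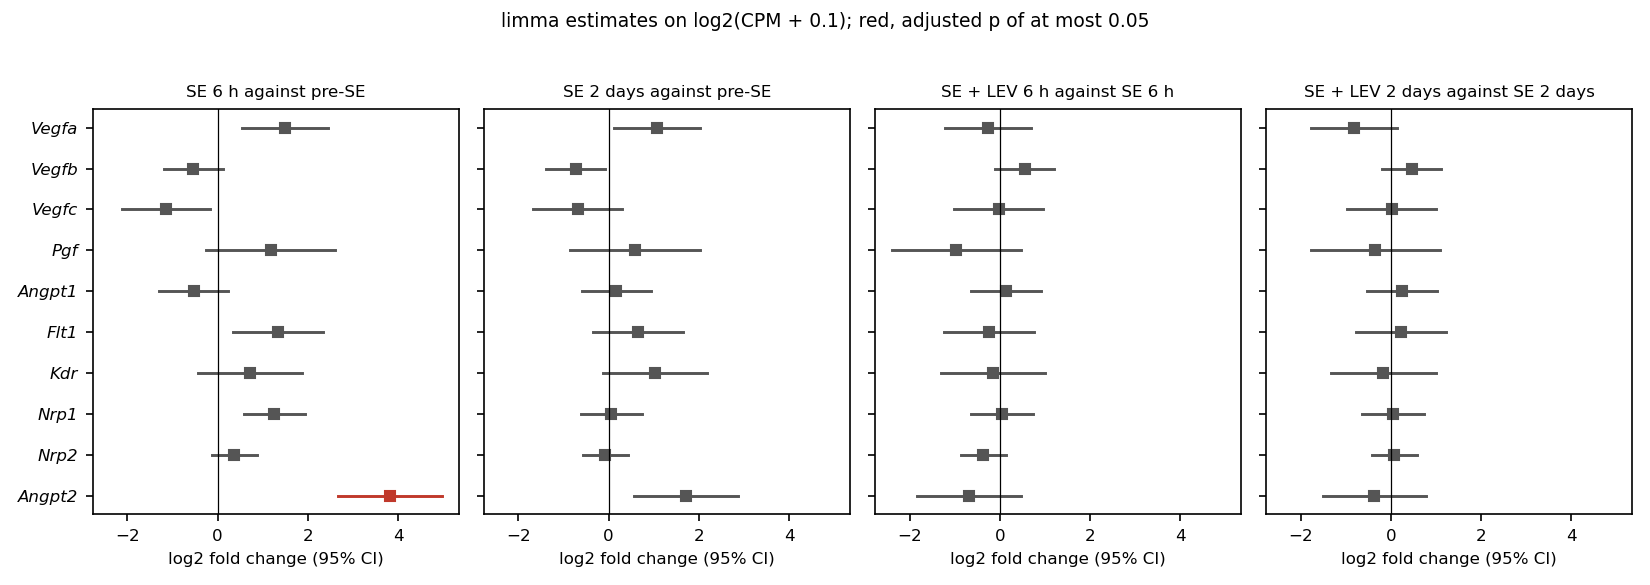
logFC of each of the 10 genes in 4 comparisons, estimated by limma on log2(CPM + 0.1), with 95% confidence intervals. Red marks an adjusted p of at most 0.05, which *Angpt2* at SE 6 h reached with an interval of 2.67 to 4.97; the LEV comparisons all have intervals that include 0.

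*Flt1*, on chromosome 5 (148373180 to 148537587, minus strand), encodes VEGFR1 and is expressed mainly in endothelial cells. Its level was 19.7 and 27.9 CPM before SE, 41.0 and 87.2 at SE 6 h and 37.1 and 69.7 at SE + LEV 6 h. It was 33.6 and 40.02 CPM at SE 2 days and 30.5 and 60.5 at SE + LEV 2 days. All 8 mice given PILO exceeded both pre-SE mice, while the groups given PILO overlapped their neighbours in the order of the means. The logFC was 1.35 ± 0.45 at SE 6 h (adjusted p = 0.159 by limma), 1.11 ± 0.45 at SE + LEV 6 h (0.465), 0.64 ± 0.45 at SE 2 days (0.488) and 0.87 ± 0.45 at SE + LEV 2 days (0.569).

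*Kdr*, on the same chromosome (76328852 to 76374483, minus strand), encodes VEGFR2, the main signalling receptor of VEGF-A. Its level was 2.66 and 4.76 CPM before SE, 4.81 and 7.33 at SE 6 h, 3.22 and 8.82 at SE + LEV 6 h, 5.68 and 9.55 at SE 2 days, and 5.49 and 7.80 at SE + LEV 2 days. The SE 6 h mice and all 4 of the 2 days mice exceeded both pre-SE mice, the lower SE 6 h mouse by 0.05 CPM. The logFC was 0.72 ± 0.52 at SE 6 h (adjusted p = 0.497 by limma) and 1.03 ± 0.52 at SE 2 days (adjusted p = 0.310). The *Flt1* to *Kdr* ratio of CPM was 7.39 and 5.87 before SE, 8.52 and 11.9 at SE 6 h, 11.5 and 7.91 at SE + LEV 6 h, 5.91 and 4.19 at SE 2 days, and 5.56 and 7.76 at SE + LEV 2 days, so that all 4 of the 6 h mice lay above the other 6.

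Both receptor genes are read mainly in endothelial cells, whose 13 markers, all above 0 in every library, summed to 128 and 111 CPM before SE, 160 and 196 at SE 6 h, 128 and 196 at SE + LEV 6 h, 215 and 171 at SE 2 days, and 155 and 199 at SE + LEV 2 days. Set against that sum, *Flt1* was 15.4 and 25.1 CPM per 100 CPM of markers before SE, 25.7 and 44.4 at SE 6 h and 15.6 and 23.4 at SE 2 days. *Angpt2* was 0.266 and 0.765 CPM per 100 CPM of markers before SE, 3.41 and 7.65 at SE 6 h and 0.949 and 1.17 at SE 2 days. *Kdr* was 2.08 and 4.28 CPM per 100 CPM of markers before SE, 3.01 and 3.73 at SE 6 h and 2.64 and 5.58 at SE 2 days. On this scale *Kdr* at SE 6 h and *Flt1* at SE 2 days lay within their pre-SE ranges. *Angpt2* lay above its pre-SE range at SE 6 h and SE 2 days, while at SE + LEV 2 days, with 1.05 and 0.745, it overlapped that range. Of the 13 markers, *Cdh5*, the gene of VE-cadherin, and *Esam*, a junction gene, were called higher at SE 6 h, with logFC values of 2.10 and 1.68, and *Vwf*, the gene of von Willebrand factor, at SE 2 days, with 1.95. Over all genes tested, 2.76% were called higher at SE 6 h and 5.07% at SE 2 days. The median logFC of the 13 was 0.75 at SE 6 h and 0.85 at SE 2 days. The part of these markers in the changes of the receptor genes was not tested.

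*Nrp1*, on chromosome 8 (130882973 to 131029362, plus strand), encodes the coreceptor of VEGF-A and of SEMA3A. Its level was 86.6 and 63.4 CPM before SE, 177 and 179 at SE 6 h and 241 and 141 at SE + LEV 6 h. It was 71.2 and 84.2 CPM at SE 2 days and 64.3 and 98.9 at SE + LEV 2 days. All 4 of the 6 h mice lay above the other 6, and both 2 days groups overlapped pre-SE. The logFC at SE 6 h was 1.26 ± 0.31 (adjusted p = 0.0615 by limma) and that from SE 6 h to SE 2 days was -1.20 ± 0.31 (adjusted p = 0.0605), both just above the threshold. At SE + LEV 6 h it was 1.32 ± 0.31 against pre-SE (adjusted p = 0.146). The microRNA gene *Mir1903* (130883141 to 130883220, same strand) lies inside *Nrp1* next to its start, and its row held the same value as *Nrp1* in all 10 libraries, so the same tags stand behind both.

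*Nrp2*, on chromosome 1 (62749859 to 62865269, plus strand), encodes the coreceptor of VEGF-C and of SEMA3F. Its level was 85.7 and 81.5 CPM before SE, 94.5 and 125 at SE 6 h, 96.6 and 73.3 at SE + LEV 6 h, 75.3 and 83.7 at SE 2 days, and 83.1 and 84.4 at SE + LEV 2 days. Both SE 6 h mice exceeded both pre-SE mice, and the other groups overlapped pre-SE. The logFC at SE 6 h was 0.38 ± 0.23 (adjusted p = 0.411 by limma). The *Nrp1* to *Nrp2* ratio of CPM was 1.01 and 0.778 before SE, 1.87 and 1.44 at SE 6 h and 2.50 and 1.93 at SE + LEV 6 h. It was 0.947 and 1.01 at SE 2 days and 0.773 and 1.17 at SE + LEV 2 days, so that all 4 of the 6 h mice stood above the other 6.

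**Figure D3:**
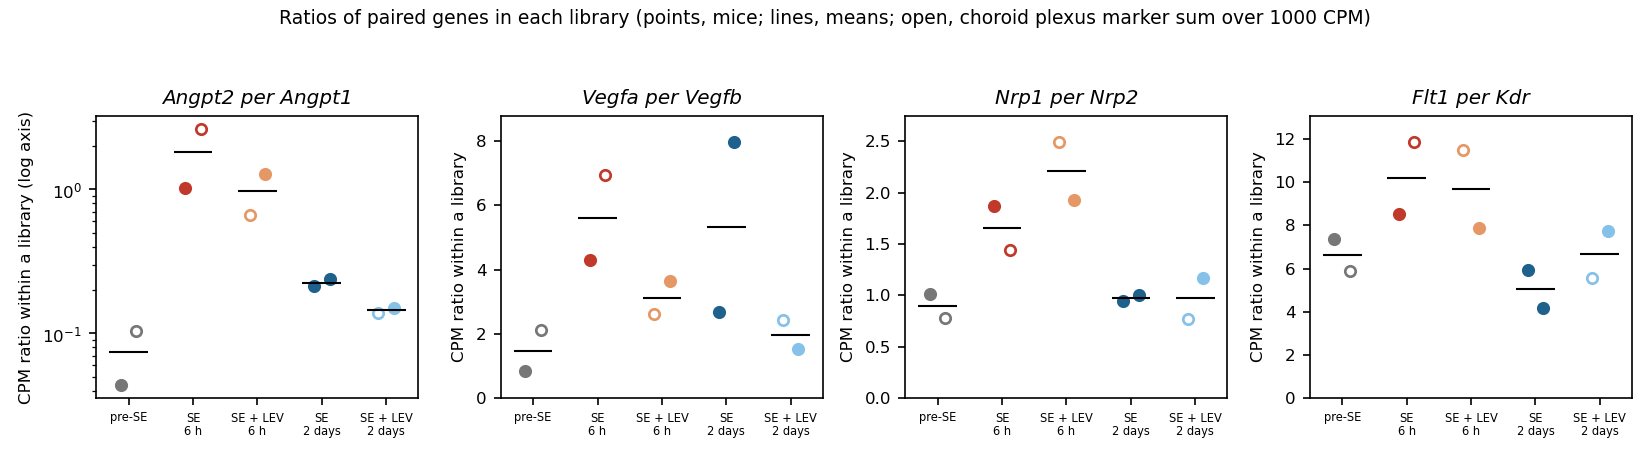
Ratios of CPM within each library for 4 pairs of genes, by group; the first panel has a log axis. Points are mice, lines are means and open points are the 4 libraries with a choroid plexus marker sum over 1000 CPM; the *Angpt2* to *Angpt1* ratio runs from 0.0438 and 0.104 before SE to 1.03 and 2.64 at SE 6 h.

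At 2 days after SE, no member was called against pre-SE by limma, where 5.07% of all genes were called higher and 0.593% lower. *Angpt2* and *Vegfa* were higher and *Vegfb* was lower at an unadjusted p under 0.05, where 12.5% of all genes were higher and 7.29% lower. The groups did not overlap for *Angpt1*, *Angpt2*, *Flt1* and *Kdr*, all higher at SE 2 days, or for *Vegfb* and *Vegfc*, both lower, where 26.3% of all genes lay wholly above and 25.6% wholly below. The median logFC of the 10 genes was 0.38, against -0.03 over all genes. At this time the 8 astrocyte markers summed to 3609 and 5020 CPM, against 2528 and 2349 before SE, and *Gfap*, the gene of the astrocyte filament protein, was 2282 and 3642 CPM of that, against 245.6 and 230.2. Of the 8 astrocyte markers, *Gfap* and *Aqp4* were called higher, and 4 in all had a logFC above 0. At an unadjusted p under 0.05, 4 of the 8 were higher and 3 lower, so the rise of the sum does not stand for the whole list. The 8 microglia markers summed to 884 and 1039 CPM, against 380 and 445. The 8 neuronal markers summed to 4435 and 3969 CPM, against 6888 and 5556 before SE. None of the neuronal markers was called, and none had a logFC above 0. The part of these marker lists in the levels of the 10 genes was not tested. From SE 6 h to SE 2 days no member was called either, where 3.14% of all genes were called higher and 1.11% lower, and *Angpt2* and *Nrp1* were lower at an unadjusted p under 0.05, where 7.29% of all genes were. Both SE 2 days mice lay below both SE 6 h mice for *Angpt2*, *Flt1*, *Nrp1* and *Nrp2* and above them for *Angpt1*, against 20.1% and 31% of all genes.

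The comparison of SE + LEV with SE asks whether the drug shifted these levels at either time. No member was called by limma, and none reached an unadjusted p under 0.05, at 6 h, where 1.16% of all genes were higher and 3.42% lower at that p, or at 2 days, where 1.31% were higher and 1.39% lower. Over all genes tested 0% were called higher and 0.0126% lower at 6 h, and 0% in either direction at 2 days. At 6 h the *Angpt2* logFC was -0.69 (95% confidence interval -1.84 to 0.46), that of *Vegfa* was -0.27 (-1.22 to 0.69) and that of *Nrp1* was 0.05 (-0.63 to 0.74). Changes of over 1 in size on the log2 scale were thus within the interval for *Angpt2* and *Vegfa* and outside it for *Nrp1*. For *Angpt2*, the SE 6 h mice stood at 5.45 and 15.0 CPM and the SE + LEV 6 h mice at 5.58 and 5.60. The mouse at 15.0 CPM was a library with choroid plexus markers. Over the alternatives this *Angpt2* logFC ran from -1.41 to 0.04. The groups did not overlap for *Vegfb* alone, which was higher with LEV by a logFC of 0.55 (-0.10 to 1.21), where 16.1% of all genes lay wholly above and 13.4% wholly below.

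At 2 days both SE + LEV mice lay below both SE mice for *Vegfa* and *Angpt2* and above them for *Angpt1*, where 12.2% of all genes lay wholly below and 15.2% wholly above. The *Vegfa* logFC was -0.81 (95% confidence interval -1.77 to 0.14), that of *Angpt2* was -0.37 (-1.52 to 0.78) and that of *Angpt1* was 0.25 (-0.52 to 1.02). Against pre-SE, no member was called in SE + LEV 2 days mice, where 2.83% of all genes were called higher and 0.0189% lower, and *Angpt2* was higher at an unadjusted p under 0.05, where 8.86% of all genes were and 1.91% were lower. The SE + LEV 2 days mice lay wholly above pre-SE for *Flt1*, *Kdr*, *Angpt1* and *Angpt2* and wholly below for *Vegfc*, where 22.6% and 17.5% of all genes did. The difference of the LEV effect between 2 days and 6 h was called for no member and for 0% of all genes in either direction, and no member reached an unadjusted p under 0.05 there, where 1.58% of all genes were higher and 0.795% lower.

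The other genes of the pathway were described by lists. Of 42 further genes of VEGF and angiopoietin signalling, 40 were tested, and 1 was called higher and 0 lower at SE 6 h, a share near the 2.76% called higher among all genes. It was *Nos3*, the endothelial nitric oxide synthase that VEGF-A activates, with 4.69 and 6.01 CPM before SE, 14.7 and 30.6 at SE 6 h and 8.37 and 16.5 at SE + LEV 6 h, and a logFC of 1.98 at SE 6 h (adjusted p = 0.0342 by limma). *Nos3* overlaps *Atg9b* and *Gm15587* on the other strand, whose tags it could share if strand was not used. The median logFC of the 40 was -0.06 at SE 6 h, close to the -0.13 of all genes. At SE 2 days 1 was again called higher and 0 lower, where 5.07% of all genes were called higher. It was *Hspb1*, a small heat shock protein phosphorylated downstream of KDR, with 2.07 and 4.18 CPM before SE and 93.7 and 131 at SE 2 days (logFC 5.19, adjusted p = 0.0228).

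The receptor genes *Tek*, *Tie1* and *Flt4* and the ligand gene *Figf* of this list, named here after their values were seen, did not pass the test. *Tek*, the angiopoietin receptor, was at 3.17 and 2.96 CPM before SE, 2.41 and 1.71 at SE 6 h and 4.75 and 4.63 at SE 2 days (logFC -0.57 and 0.60 against pre-SE, adjusted p = 0.591 and 0.581 by limma). Its SE 6 h pair lay below and its SE 2 days pair above pre-SE, as for *Angpt1*, where 31.3% and 26.3% of all genes did. *Tie1* had logFC values of -0.06 and 0.57, *Flt4*, the VEGF-C receptor, 1.20 and 0.83, and *Figf*, which encodes VEGF-D, -0.13 and -1.61 at SE 6 h and SE 2 days, with adjusted p values of 0.174 to 0.954.

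The 12 semaphorin and plexin genes of the neuropilins gave 11 tested and 0 called against pre-SE at either time. Over all genes tested, 2.76% were called higher and 0.202% lower at SE 6 h, and 5.07% and 0.593% at SE 2 days. Of the 11, 1 was higher at an unadjusted p under 0.05 at SE 6 h, where 9.21% of all genes were. At SE 2 days 1 was higher and 1 lower at that p, where 12.5% and 7.29% of all genes were. Among 27 tested of 28 hypoxia-responsive genes, 1 was called higher at SE 6 h and 2 at SE 2 days, and 0 lower. These shares are near those called higher among all genes. *Pfkfb3*, an activator of glycolysis, was at 15.0 and 11.4 CPM before SE, 32.6 and 46.2 at SE 6 h and 26.8 and 37.4 at SE 2 days (logFC 1.56 and 1.27, adjusted p = 0.0197 and 0.0326 by limma). *Hk2*, hexokinase 2, was called at SE 2 days with a logFC of 2.23 (adjusted p = 0.0119). The list's median logFC was 0.07 at SE 6 h and -0.04 at SE 2 days.

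Of 30 genes of endothelial tip cells and sprouting, 24 were tested, and 5 were called higher and 0 lower at each time, where 2.76% of all genes were called higher at SE 6 h and 5.07% at SE 2 days; no test of the difference between lists was made. Their median logFC was 1.25 at SE 6 h and 1.01 at SE 2 days. At SE 6 h the 4 with the largest logFC were *Plaur*, the urokinase receptor (6.30), *Thbs1*, thrombospondin 1, an inhibitor of angiogenesis (4.95), *Cyr61*, a matricellular protein (3.88), and *Adamts1*, a matrix protease (2.27). The remaining gene was *Col4a1*, a basement membrane collagen (1.97), which overlaps *Col4a2* on the other strand and was named after its value was seen. At SE 2 days they were *Plaur* (5.45), *Cyr61* (4.09), *Adamts1* (2.15) and *Id1*, a target of BMP signalling (1.85), and again *Col4a1* (1.64). Most of these 6 genes are also expressed outside vessels, so the list's name does not give the cells behind its tags.

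**Figure D4:**
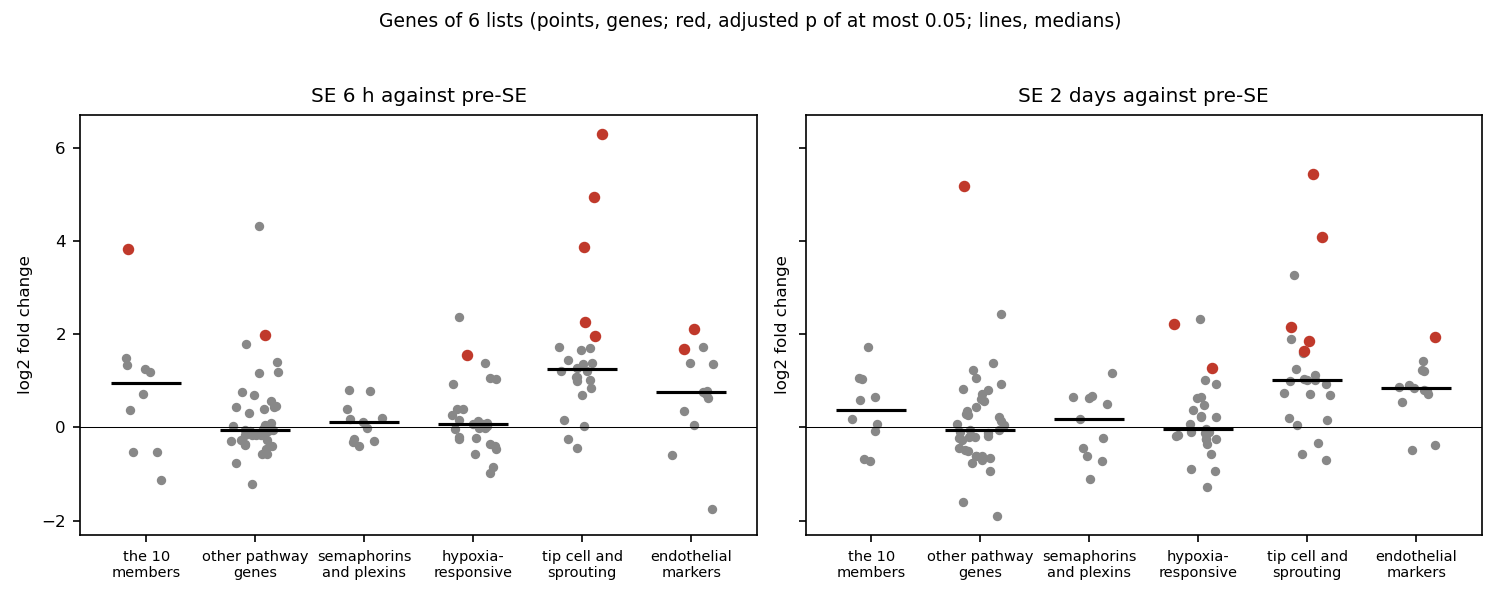
logFC against pre-SE of the 10 members and of 5 lists of genes at SE 6 h (left) and SE 2 days (right), estimated by limma on log2(CPM + 0.1). Points are genes, red points have an adjusted p of at most 0.05 and lines are medians, which at SE 6 h are 0.95 for the members, -0.06 for the other pathway genes and 1.25 for the tip cell and sprouting genes.

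Across the 10 libraries, the genes with the most similar pattern were sought among 14107 with a mean of at least 1 CPM, as a description, by Pearson's r of log2(CPM + 0.1). The libraries share their groups, depth and choroid plexus content, and r is across libraries of 5 groups. For *Angpt2* they were *Adamts9* (r = 0.974) and *Arid5a* (0.968), for *Nrp1*, after *Mir1903*, *Bach2* (0.973), and for *Vegfa* *2700073G19Rik* and *Alkbh1* (both 0.973). For *Vegfb* they were *Casd1* (0.980) and *St6galnac6* (0.975), and for *Flt1* *Eltd1* (0.956), a gene of endothelial cells, and *Unc13b* (0.947). For *Vegfc*, *Pgf*, *Kdr*, *Nrp2* and *Angpt1* the most similar gene had an r of 0.932 to 0.957.

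Between the members themselves, r with *Angpt2* was 0.81 for *Vegfa*, 0.80 for *Flt1*, 0.77 for *Nrp1*, -0.84 for *Vegfc* and -0.57 for *Angpt1*. *Flt1* and *Kdr* had an r of 0.72, *Nrp1* and *Nrp2* of 0.61, and *Vegfa* and *Vegfb* of -0.44.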

How the data were processed

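CAGE libraries of whole hippocampi from 10 mice, 2 in each of 5 groups, were analysed. Mapping by the authors used BWA 0.7.17 and, for leftover tags, HISAT2 2.0.5 on the mm9 genome. RECLU made tag clusters, those under 0.1 CPM were dropped, and the deposited CPM values, 1 per gene and library, are scaled to the library total. Per the submitters' processing notes, bedtools 2.12.0 and edgeR 3.22.5 were also used. How clusters were summed to genes, and whether strand was used, is not given in the sources used here.

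CPM values were transformed to log2(CPM + 0.1). A level of 0.1 CPM or more in 2 or more libraries was required, which 15851 genes had, and these were fitted with limma 3.58.1 (R 4.3.3) as 5 group means over all 10 libraries, with a mean-variance trend. Tests were two-sided with Benjamini-Hochberg adjustment over all genes tested, and an adjusted p of at most 0.05 was called. The fit understates changes of genes with low CPM. With 2 mice a group, calls rest on the spread shared across genes and groups. Library totals were recovered from the rounded CPM values and used for depth and the tag counts of *Angpt2*, not for tests. At these totals 100% of the values in each library were whole tags within rounding, and all 10 totals were found in simulation. In most libraries a tag is worth only a few rounding steps, and a separate check of the rounded values did not pass in every library. On simulated data for SE 6 h against pre-SE with 15804 genes, 168 of 200 changed genes were called (97.5% of those at a logFC of 2 or more and 63.7% at 1), with 6 false calls, and 0 calls without change. The simulated mice had the same dispersion in every gene and did not differ in choroid plexus content. These shares are therefore not the power for the 10 members, of which *Vegfa* at a logFC of 1.49 ± 0.43 and *Flt1* at 1.35 ± 0.45 were not called.

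Genes were named by rule: the 10 members, up to 4 called genes of each list by size of logFC, markers that define cells, and the 2 most similar genes of each member. Members and lists were chosen with earlier results of these data known. Positions are from GENCODE M1 on mm9. Alternatives were pseudocounts of 0.01, 0.5 and 1, other filters, replicate number as a block, rescaling by median of ratios, a flat variance prior, fits of the compared groups alone, and each mouse left out. A crossed block, leaving out the 4 libraries with choroid plexus markers, and their marker sum as a covariate were added after seeing the data. Figures used matplotlib 3.10.9, and tables used pandas 2.3.3 and scipy 1.17.1 in Python 3.11.15.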

Additional observations from a re-analysis of the deposited data

Results flagged for a closer look

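*Angpt1* was set apart because its SE 6 h and SE 2 days pairs, which are different mice, lay on opposite sides of the pre-SE pair. Both SE 6 h mice lay below both pre-SE mice (logFC -0.53), where 31.3% of all genes lay wholly below. Both SE 2 days mice lay above them (logFC 0.17), where 26.3% of all genes lay wholly above. The comparisons share the pre-SE mice. The direct comparison of SE 2 days with SE 6 h, which tests this difference, gave a logFC of 0.70 with an adjusted p of 0.289 by limma and was not called.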

How the results depend on the processing

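Only the 16 estimates of single members with an unadjusted p under 0.05 in the main fit were followed, and none compares SE + LEV with SE. They kept their direction in all 337 alternatives, where 306 stayed on the same side of the threshold, 13 lost a call and 18 gained one. Estimates that were not followed could change sign. At SE + LEV 6 h against SE 6 h, the *Flt1* logFC ran from -0.777 to 0.766 over the alternatives. The number of members called against pre-SE at SE 6 h, 1 in the main fit (*Angpt2*), was 2 with median-of-ratios rescaling (*Nrp1* added) and 0 without the 4 libraries with choroid plexus markers, which leaves 1 mouse in all groups but SE 2 days; it ran from 1 to 2 with a mouse left out, where leaving out either SE + LEV 2 days mouse added *Nrp1*. Rescaling moved the median logFC of all genes in that comparison from -0.13 to -0.00451. At SE 2 days against pre-SE, 0 members were called in the main fit and 1 (*Angpt2*) with the choroid plexus covariate. From SE 6 h to SE 2 days, 0 became 1 with pseudocounts of 0.5 and 1 and with rescaling (*Angpt2*), and with the fit of only the groups compared and the covariate (*Nrp1*), and it ran from 0 to 2 with a mouse left out: 1 (*Angpt2*) without either pre-SE mouse or SE 6 h replicate 1, and 2 (*Nrp1* and *Angpt2*) without either SE + LEV 2 days mouse. At SE + LEV 6 h against pre-SE, 1 became 0 with pseudocounts of 0.5 and 1, without the mean-variance trend, with only the groups compared and without the 4 libraries, and it ran from 0 to 1 with a mouse left out, lost without either pre-SE, SE + LEV 6 h or SE 2 days mouse. The counts of the other 4 comparisons stayed at 0. The cause of these changes was not tested.

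Replicate numbers are shared between groups but mark different mice. As a replicate block they gave 3 members called at SE 6 h against pre-SE (*Vegfa*, *Flt1* and *Angpt2*, with *Vegfa* at an adjusted p of 0.0494 and *Flt1* at 0.0332 by limma) and 0 at SE + LEV 6 h (*Angpt2* at 0.0507), and the block changed no other count. Deviations of same-numbered mice correlated across genes at -0.44 to 0.34 over the comparisons. Where this was under -0.1, at SE + LEV 2 days against SE 2 days and against pre-SE, crossed numbers as a block gave 0 members called. The planned count tests on recovered tags, by edgeR and DESeq2, were not run. The reason was the separate check of the rounded CPM values, which did not pass in every library. In the pre-SE libraries 3 tags were worth 0.104 and 0.058 CPM, under their *Angpt2* levels of 0.34 and 0.85 CPM, and the *Angpt2* logFC at SE 6 h ran from 2.69 with a pseudocount of 1 to 4.05 with 0.01.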
